A study of Mus musculus with 6 samples.

Results

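The BCL2 family of survival and death genes was examined in RNA-seq libraries of mouse peritoneal macrophages. The 10 members were chosen by name, as the genes called Bcl2, Bcl2l1, Mcl1, Bcl2a1a, Bcl2a1b, Bcl2a1d, Bcl2l11, Bid, Bax and Bak1 in a deposited table of 54532 genes. All 10 were found, and 9 of them reached a mean of at least 1 FPKM (fragments per kilobase of transcript, scaled to the size of the library) over the 6 libraries, as did 9794 genes in all. Bcl2 was the member below that limit and was therefore described without a test.

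The macrophages came from male wild-type C57BL/6J mice of 6 to 8 weeks and had been elicited with thioglycolate, an irritant that draws cells into the peritoneum. Control cells received no stimulus. Model cells received LPS, a bacterial cell wall component, at 500 ng/mL for 5.5 h and then 2 mM ATP for 0.5 h, a sequence that assembles the NLRP3 inflammasome. MUS cells were stimulated as Model cells were and also received muscone, the macrocyclic ketone of musk, at 50 µM from 0.5 h before ATP. Each group had 2 libraries of poly-A RNA, and the labels placed replicate 1 of every group in batch 1 and replicate 2 in batch 2. The sources used here do not say whether replicates came from separate mice or cultures, or how many mice gave a library, so p-values measure only the spread between these libraries. No drug-only group was analysed here, so every MUS value is that of muscone together with LPS and ATP.

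The BCL2 family sets whether the outer membrane of mitochondria stays intact. Its survival proteins (BCL-2, BCL-XL, MCL-1 and A1) hold the pore formers BAX and BAK in check, and BH3-only proteins such as BIM and BID either block the survival proteins or switch on the pore formers. Once BAX or BAK perforate the membrane, cytochrome c escapes and assembles the apoptosome, the platform that starts the caspase cascade. In macrophages, A1 and MCL-1 are known as short-lived survival proteins, and A1 is a well-known NF-κB target.

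The A1 protein is encoded in the mouse by several gene copies on chromosome 9, of which 3 are members, and their near identity decides how far their counts can be told apart. The coding sequences of the 3 copies are each 516 bases long. Bcl2a1a and Bcl2a1b are identical at 97.87% of these bases, Bcl2a1a and Bcl2a1d at 98.64%, and Bcl2a1b and Bcl2a1d at 98.84%. At 12 positions at least 1 copy differs from the others, and 6 of these lie in the first 90 coding bases. That stretch is shown for each copy on its coding strand with GRCm38 positions, and capitals mark the bases that differ between the copies.
Bcl2a1a (chr9:88957051-88957140): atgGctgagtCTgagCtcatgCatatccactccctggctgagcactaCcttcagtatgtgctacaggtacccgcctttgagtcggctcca
Bcl2a1b (chr9:89199360-89199449): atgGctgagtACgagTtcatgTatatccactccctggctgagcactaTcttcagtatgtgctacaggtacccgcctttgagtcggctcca
Bcl2a1d (chr9:88731630-88731719): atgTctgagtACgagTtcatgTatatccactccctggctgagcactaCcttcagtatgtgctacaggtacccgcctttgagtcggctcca

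Of all 50-base stretches in the annotated transcripts of Bcl2a1a, 68.96% also occur in transcripts of another gene, and the share is 79.17% for Bcl2a1b and 79.48% for Bcl2a1d. The transcripts that share them are mainly those of the other A1 copies and of Gm29094, a gene annotated over Bcl2a1b and listed at 0 in every library. Fragments from most of an A1 transcript can therefore be placed on more than 1 copy, so the levels of the single copies are uncertain and their sum is given beside them. Outside the A1 copies, shared stretches made up 8.51% of Bax, all of it with the overlapping gene Gm45808, which was listed at 0 in every library. They made up under 1% of each of the other members.

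The stretches before the A1 copies were also nearly the same. They are shown because the copies lie within 1 cluster and were measured at different levels, and they run 5′ to 3′ from the beginning of the RefSeq promoter window (build GRCm38.p6) to the last base before the gene in the deposited table. Capitals mark GAGGAAGT, a core of the PU.1 site, the binding site of a transcription factor that macrophages need.
Bcl2a1a (chr9:88956670-88956899, plus strand): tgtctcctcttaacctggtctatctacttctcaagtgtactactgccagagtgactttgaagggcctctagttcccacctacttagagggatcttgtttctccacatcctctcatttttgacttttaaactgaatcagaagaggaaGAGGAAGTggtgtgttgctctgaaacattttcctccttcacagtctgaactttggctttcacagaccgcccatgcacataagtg
Bcl2a1b (chr9:89199023-89199208, plus strand): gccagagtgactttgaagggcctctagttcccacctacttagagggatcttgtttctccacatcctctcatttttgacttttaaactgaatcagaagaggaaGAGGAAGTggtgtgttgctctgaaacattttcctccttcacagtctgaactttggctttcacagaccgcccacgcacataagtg
Bcl2a1d (chr9:88731915-88732100, minus strand): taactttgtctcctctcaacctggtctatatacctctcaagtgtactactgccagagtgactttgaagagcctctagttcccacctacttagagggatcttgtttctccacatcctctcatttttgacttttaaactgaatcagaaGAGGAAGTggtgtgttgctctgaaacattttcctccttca

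The whole RefSeq windows, from 250 bases before to 50 bases after a start, were searched on both strands for 3 motifs that do not overlap here. All 10 members matched, with 13 windows. GAGGAAGT was found in 4 of the 13 member windows, those of Bcl2a1a, Bcl2a1b, Bcl2a1d and Bak1, against 3.2% of 32851 mouse windows. The windows of the A1 copies are nearly the same sequence and are not separate evidence. Its first base lay at -104, -148 and -104 from the RefSeq start of Bcl2a1a, Bcl2a1b and Bcl2a1d, and at -22 in Bak1, on the opposite strand. For the A1 copies these starts differ from the gene starts of the deposited table, where the stretches above end. The distances therefore also reflect where each start was annotated. The NF-κB consensus was found in 1 member window, that of Bcl2l1 (8.46% of all windows), and the AP-1 motif TGACTCA in 0 member windows (5.2% of all windows). These matches are letters in a window and do not show binding.

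The libraries held between 15526321 and 17135442 fragments on genes, recovered from the FPKM as described in the processing section. Model replicate 1 had fragments on 24906 genes, against 17406 to 19200 in the other libraries. The median deviation of genes over 5 kb from their mean over libraries was -0.14 (log2) in Model replicate 1 and 0.07 in Model replicate 2. The part of these differences in the member values was not tested. Of 6 macrophage markers fixed for the purpose (Adgre1, Cd68, Csf1r, Itgam, Lyz2 and Cd14), all 6 had a mean of at least 1 FPKM, whereas 0 of 6 T cell, 0 of 5 B cell and 0 of 6 eosinophil and mast cell markers did. Of 6 neutrophil markers, 2 did (S100a8 and Csf3r), and Ly6g, S100a9 and Retnlg were listed at 0 in every library. Summed over the 6 neutrophil genes, the level was 46.6 and 49.1 FPKM in Control, 156 and 129 in Model, then 116 and 115 in MUS. The part of this sum in the member values was not tested. The FPKM of the Control libraries rested on a scale of 1.45 and 1.34 times their fragment totals, against 0.909 to 0.998 times in the Model and MUS libraries, and dividing by fragment totals lowered the median log2 fold change of all genes by 0.44 in Model vs. Control and by 0.43 in MUS vs. Control. In bulk samples, fewer cells of a type and less RNA per cell cannot be told apart.

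In each group the survival transcripts spanned the whole range of the family, from Mcl1 and the A1 copies at the top to Bcl2 at the bottom. In Control, Mcl1 had the highest mean FPKM, followed by Bcl2a1b, Bcl2a1d, Bcl2a1a and Bax, which each overlapped their neighbour in this order. Bak1, Bcl2l1, Bcl2l11 and Bid came next, within 9.15 to 9.80 FPKM on average and with overlapping ranges between neighbours, and Bcl2 was lowest. In Model, Mcl1 and Bcl2a1d overlapped at the top. Bcl2a1b and Bcl2a1a followed, then Bax, Bid and Bak1, then Bcl2l1 and Bcl2l11, and Bcl2 again last. In MUS, Bcl2a1d and Mcl1 overlapped at the top, and Bid stood above Bax without overlap.

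**Figure D1:**
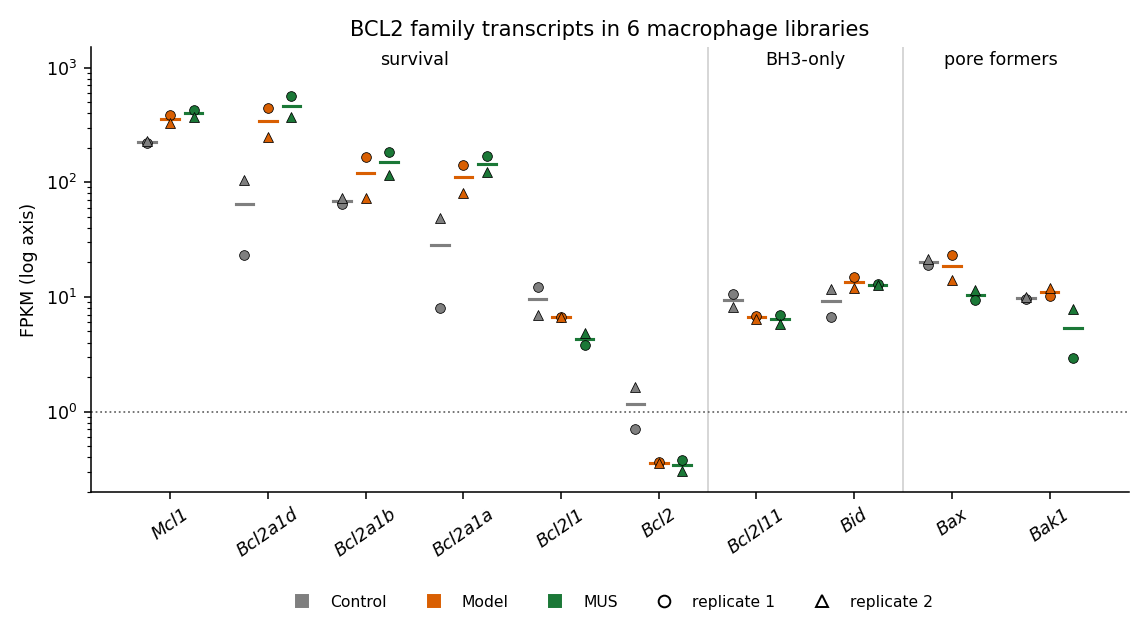
FPKM of the 10 members on a log axis, with 1 point for each library (circle for replicate 1, triangle for replicate 2) and a bar at the mean of each group of 2 libraries. The A1 copies spread widely in Control, where Bcl2a1d reads 23.3 and 105 FPKM, and Bcl2 lies below the dotted line at 1 FPKM in 5 of 6 libraries.

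To ask how the family responded to LPS and ATP, Model was compared with Control by limma on log2(FPKM + 1), and a gene was called where the Benjamini-Hochberg adjusted p over all 9794 genes was at most 0.05 and the absolute log2 fold change exceeded 1. On this scale the change of a gene with low FPKM is understated. Of the 9 members tested, 1 was called, the A1 copy Bcl2a1d, which was higher. Over all genes tested, 15.1% were called, 9.5% as higher and 5.56% as lower. On the deposited FPKM scale, library ranges of Model and Control did not overlap for 9 of the 10 members. Of these, 6 were higher (Mcl1, Bcl2a1a, Bcl2a1b, Bcl2a1d, Bid and Bak1) and 3 lower (Bcl2, Bcl2l1 and Bcl2l11). On that scale 61.1% of all genes tested did not overlap (32.6% higher and 28.5% lower). The A1 copies are not separate evidence. With FPKM rescaled to fragment totals, Bid and Bcl2a1b overlapped. Bak1 then lay lower in Model (9.18 and 12.01, against 13.9 and 13.4 in Control). Bax did too (21.1 and 13.9, against 27.7 and 28.6). The other members kept their direction without overlap. For any gene alone, permuting 2 against 2 libraries exactly cannot give p under 0.333, and the tests here draw on the spread of other genes through limma.

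Bcl2a1d (ENSMUSG00000099974, chr9:88723285-88731914, minus strand, GRCm38) had 23.3 and 105 FPKM in Control and 443 and 248 FPKM in Model. Both Model libraries lay above both Control libraries, and Control replicate 1 was far below Control replicate 2. The group means were 64.4 ± 58.1 and 345 ± 138 FPKM (SD, n = 2 each), a log2 fold change of 2.71 (standard error 0.70, limma adjusted p = 0.0401). Within batch 1 the FPKM ratio was 19.0, and within batch 2 it was 2.35. This call was lost on leaving out any single library except Control replicate 2 (limma adjusted p 0.0734 to 0.173), and it was also lost with all genes tested (0.205), with quantile normalization (0.0918) and with 2 groups fitted alone (0.0829).

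Bcl2a1a (ENSMUSG00000102037, chr9:88956900-88962419, plus strand) had 8.01 and 49.1 FPKM in Control and 141 and 80.4 FPKM in Model. It too was spread mainly by Control replicate 1. The log2 fold change of 2.34 (standard error 0.75) did not pass the test (limma adjusted p = 0.0765), whereas without Control replicate 2 it was 3.58 and passed (0.0032). Bcl2a1b (ENSMUSG00000089929, chr9:89199209-89207827, plus strand) had 64.7 and 73.2 FPKM in Control against 167 and 73.5 FPKM in Model, so that Model replicate 2 barely exceeded the higher Control library. Its log2 fold change of 0.68 (standard error 0.46) did not pass (limma adjusted p = 0.332), and it was -0.11 with quantile normalization.

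Summed over the 3 copies, A1 stood at 96.0 and 228 FPKM in Control and at 751 and 401 FPKM in Model. The means were 162 ± 93.2 and 576 ± 247 FPKM (SD, n = 2 each), and the log2 fold change of the sum, 1.89 (standard error 0.54), just missed the threshold (limma adjusted p = 0.0558) and passed it without Control replicate 2 (2.50, limma adjusted p = 0.0174). The ratio was 7.83 within batch 1 and 1.76 within batch 2. The part of Bcl2a1b in the sum of A1 fragments was 66.5% in Control replicate 1 (95% Wilson interval 64.3 to 68.6) and 31.3% in Control replicate 2 (29.9 to 32.7). In the Model and MUS libraries it lay between 17.7% and 21.5%. Bcl2a1d held 25.2% and 47.7% of the A1 fragments in the Control libraries and 60.2% to 62.9% in the other 4. Bcl2a1a held 8.25% and 21.0% in Control and 17.8% to 19.5% elsewhere. The fragments assigned to the copies were therefore split differently in the 2 Control libraries, beyond counting error, which is all that these intervals cover. How fragments that match several copies were assigned is not known, so this split need not be that of the transcripts.

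**Figure D2:**
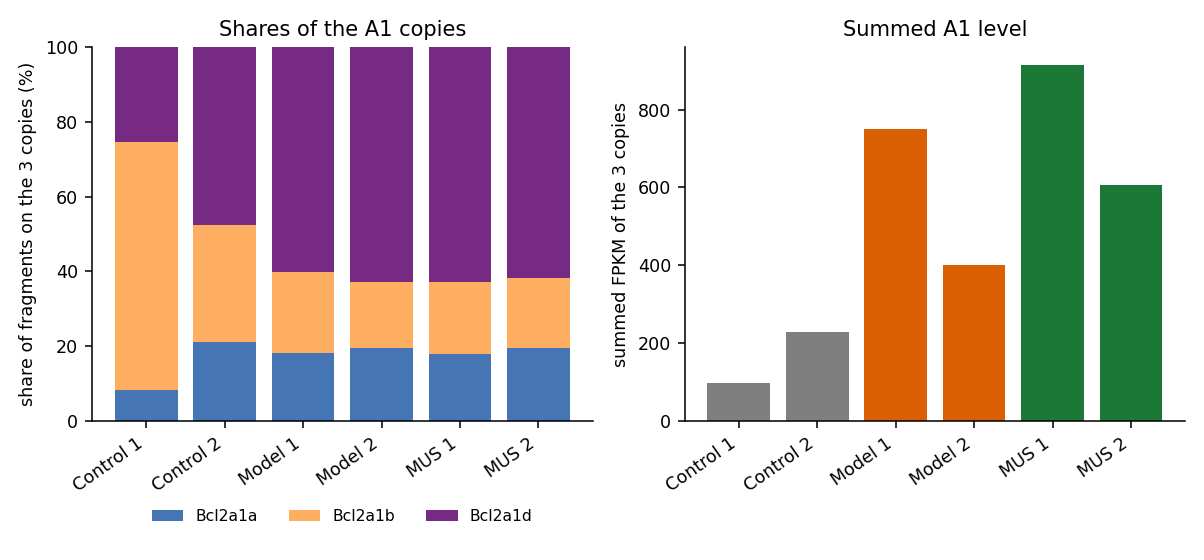
Left, percent of the fragments on Bcl2a1a, Bcl2a1b and Bcl2a1d that fell on each copy, by library. Right, summed FPKM of the 3 copies on an axis from 0, by library. Bcl2a1b takes 66.5% in Control replicate 1 and at most 21.5% in the 4 stimulated libraries, and the sum runs from 96.0 FPKM in Control replicate 1 to 914 FPKM in MUS replicate 1.

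Some properties of the libraries also differed. Control replicate 2 held more of the induced genes than Control replicate 1, as 799 of the 930 genes called higher in Model vs. Control (85.9%) were higher in it, against 53.2% of all genes tested. The cytokine gene Il1b, for example, was at 34.2 FPKM in Control replicate 2 and at 0.550 FPKM in Control replicate 1, while the lowest stimulated library held 4750 FPKM. The part of this difference in the A1 values was not tested. The A1 transcripts are short, with 817 to 863 bases in the table. For the 1053 genes under 1 kb, the median deviation from their mean over libraries was -0.20 and -0.21 (log2) in the Control libraries. It was 0.18 in Model replicate 1, 0.03 in Model replicate 2, and 0.10 and 0.08 in the MUS libraries. After a gene-length correction, chosen after seeing the data, Bcl2a1d had a log2 fold change of 2.59 (limma adjusted p = 0.0497), and with the replicate block added the adjusted p was 0.0585.

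Mcl1 (ENSMUSG00000038612, chr3:95658788-95663176, plus strand), which encodes a survival protein that binds BIM and BAK, had 221 and 231 FPKM in Control and 389 and 326 FPKM in Model. All Model values lay above all Control values. The means, 226 ± 6.64 and 357 ± 44.2 FPKM (SD, n = 2 each), gave a log2 fold change of 0.65 (standard error 0.33, 95% confidence interval -0.12 to 1.43), which did not pass (limma adjusted p = 0.2097). Recovered fragments on Mcl1 were 17289 and 18034 in Control and 18742 and 17269 in Model, which overlapped before any division by library totals. With FPKM rescaled to fragment totals, Mcl1 was at 321 and 308 in Control and at 353 and 325 in Model. These did not overlap, and the log2 fold change was 0.11. The log2 fold change was -0.38 with quantile normalization.

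Bcl2l1 (ENSMUSG00000007659, chr2:152780668-152831728, minus strand), the gene of BCL-XL, had 12.2 and 6.91 FPKM in Control and 6.67 and 6.74 FPKM in Model. The Model libraries were nearly equal and just under the lower Control library. The difference of -0.41 on the log2 scale (standard error 0.29) did not pass the test (limma adjusted p = 0.354), and it was -0.04 without Control replicate 1. Bcl2 (ENSMUSG00000057329, chr1:106538178-106714274, minus strand), the founding member of the family, had 0.702 and 1.64 FPKM in Control and 0.364 and 0.352 FPKM in Model. The Control libraries held 147 and 343 of its fragments and the Model libraries 47 and 50. The mean fell below the limit for testing, and the ratio of the Model mean to the Control mean was 0.306. With all genes tested the log2 fold change of Bcl2 was -0.64 (limma adjusted p = 0.382).

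Among the BH3-only genes, Bcl2l11 (ENSMUSG00000027381, chr2:128126038-128162547, plus strand) encodes BIM, which binds every survival protein of the family. It had 10.6 and 8.10 FPKM in Control and 6.85 and 6.37 FPKM in Model, without overlap. Its change of -0.44 on the log2 scale (standard error 0.23) did not pass (limma adjusted p = 0.226). It did pass when recovered fragments were fitted with voom (log2 fold change -1.04, limma adjusted p = 0.0261), a fit in which the median of all genes was also lower by 0.54. Bid (ENSMUSG00000004446, chr6:120891930-120916853, minus strand), whose product is cut by caspase-8 to reach mitochondria, had 6.66 and 11.6 FPKM in Control and 14.8 and 12.04 FPKM in Model. Control replicate 2 nearly reached Model replicate 2, and the log2 fold change of 0.54 (standard error 0.30) did not pass (limma adjusted p = 0.239).

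Neither pore former passed the test between Control and Model. Bax (ENSMUSG00000003873, chr7:45461697-45466898, minus strand) had 19.1 and 21.4 FPKM in Control and 23.2 and 13.9 FPKM in Model, with the Control values between the Model values. Its log2 fold change was -0.16 (95% confidence interval -0.87 to 0.55, limma adjusted p = 0.738). Bak1 (ENSMUSG00000057789, chr17:27019810-27029009, minus strand) had 9.56 and 10.04 FPKM in Control and 10.1 and 12.04 FPKM in Model, and its log2 fold change was 0.16 (95% confidence interval -0.74 to 1.05, limma adjusted p = 0.797). The direction of Bak1 was negative under each of 4 other scalings, from -0.38 with voom to -0.02 with quantile normalization.

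To ask what muscone changed in stimulated cells, MUS was compared with Model. No member was called, as was no other gene, since 0% of the 9794 genes tested passed in limma and the smallest adjusted p was 0.139. An unadjusted p under 0.05 was found for 2 of the 9 members tested, the pore formers Bak1 and Bax, both lower in MUS, against 8.42% of all genes (5.81% lower and 2.61% higher). Library ranges did not overlap for 3 of the 10 members (Bcl2l1, Bax and Bak1, all lower in MUS), where 42.1% of all genes did not overlap (21.2% higher and 21% lower). With FPKM rescaled to fragment totals, Mcl1 was also apart, at 401 and 364 in MUS against 353 and 325 in Model. The same libraries of Model serve this comparison and the previous one.

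Bak1 had 10.1 and 12.04 FPKM in Model and 2.91 and 7.83 FPKM in MUS. MUS replicate 1 was the lowest library, with 106 fragments against 306 in MUS replicate 2 and 343 and 449 in Model. The means of 11.1 ± 1.37 and 5.37 ± 3.47 FPKM (SD, n = 2 each) gave a log2 fold change of -1.03 (95% confidence interval -1.93 to -0.14), with a limma p of 0.0289 before and 0.513 after adjustment. The change was -0.45 without MUS replicate 1. Within batch 1 the MUS to Model ratio was 0.289, and within batch 2 it was 0.650.

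Bax had 23.2 and 13.9 FPKM in Model and 9.40 and 11.5 FPKM in MUS, so the MUS libraries were the lower ones without overlap. The means were 18.6 ± 6.59 and 10.5 ± 1.499 FPKM (SD, n = 2 each). A log2 fold change of -0.74 (95% confidence interval -1.45 to -0.02) had a limma p of 0.0443 before and 0.576 after adjustment. Its ratio was 0.405 within batch 1 and 0.828 within batch 2, and the log2 fold change was -0.39 without Model replicate 1. BAX and BAK can each form the membrane pore, and the ratio of Bax to Bak1 FPKM, which does not depend on the scale of a library, was 2.00 and 2.13 in Control, 2.30 and 1.16 in Model, then 3.23 and 1.47 in MUS. These ratios overlapped between the groups.

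Bcl2l1 had 3.78 and 4.82 FPKM in MUS, below the Model values of 6.67 and 6.74 FPKM. The log2 fold change of -0.55 (95% confidence interval -1.23 to 0.13) did not pass (limma adjusted p = 0.681). Mcl1 had 430 and 369 FPKM in MUS, overlapping Model, with a log2 fold change of 0.16 (95% confidence interval -0.61 to 0.94). The A1 sum was 914 and 605 FPKM in MUS and also overlapped Model, with a log2 fold change of 0.44 (95% confidence interval -0.85 to 1.72, limma adjusted p = 0.880). Within each batch the A1 sum was higher in MUS than in Model, by ratios of 1.22 and 1.51. Bcl2l11, at 6.90 and 5.81 FPKM in MUS, and Bid, at 12.9 and 12.8 FPKM, each had a log2 fold change of -0.05, with intervals from -0.59 to 0.49 and from -0.75 to 0.64. Bcl2 had 0.376 and 0.303 FPKM in MUS, from 52 and 45 fragments, on either side of the Model values. Within each batch 7 of the 10 members kept the same direction in MUS vs. Model, 4 higher (Mcl1 and the A1 copies) and 3 lower (Bcl2l1, Bax and Bak1), where 60.1% of all genes tested did (30.1% higher and 30.1% lower). The A1 copies share most of their sequence and are not separate evidence.

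**Figure D3:**
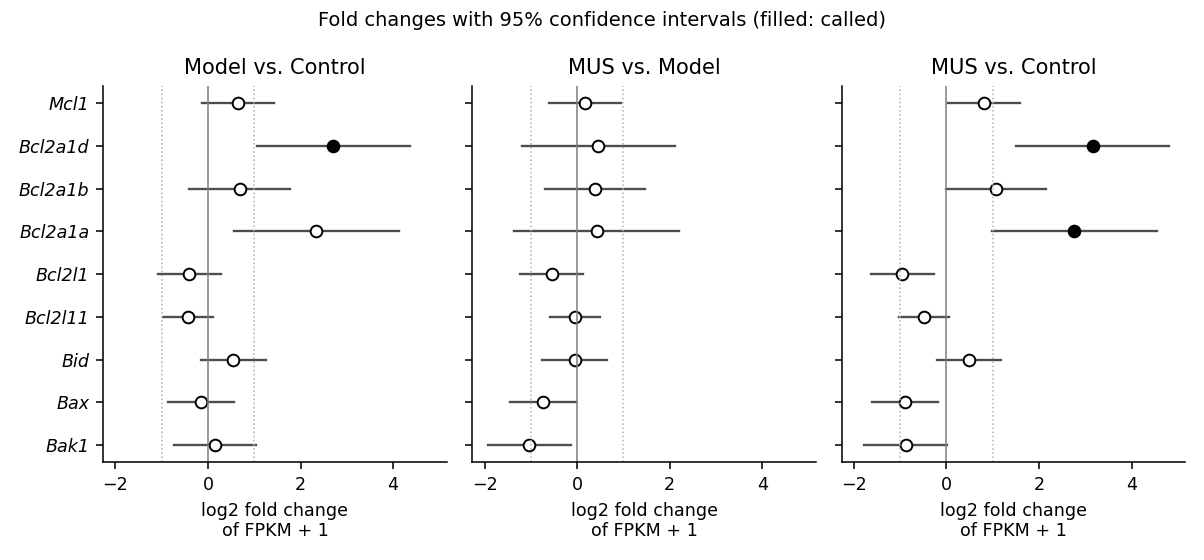
Log2 fold changes of FPKM + 1 for the 9 members tested in the 3 comparisons, with bars for 95% confidence intervals from limma, dotted lines at -1 and 1, and filled points for called genes. Bcl2a1d is filled in Model vs. Control, no gene is filled in MUS vs. Model, and Bcl2a1a and Bcl2a1d are filled in MUS vs. Control.

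MUS was also compared with Control, which shares libraries with both other comparisons. Of the 9 members tested, 2 were called, Bcl2a1d and Bcl2a1a, both higher, where 20.2% of all genes were called (11.3% as higher and 8.91% as lower). Bcl2a1d had a log2 fold change of 3.16 (standard error 0.70, limma adjusted p = 0.0201) and Bcl2a1a of 2.76 (standard error 0.75, limma adjusted p = 0.0385). The call of Bcl2a1d was lost without MUS replicate 1 (0.155) or MUS replicate 2 (0.0785), and that of Bcl2a1a without any single library except Control replicate 2 (0.0593 to 0.219). Bcl2a1a also lost its call with quantile normalization (0.0824), with scaling without mitochondrial and highest genes (0.0517), with all genes tested (0.185) and with 2 groups fitted alone (0.0599), and Bcl2a1d lost its call with all genes tested (0.126). The A1 sum had a log2 fold change of 2.32 (standard error 0.54, limma adjusted p = 0.0240), a call that was lost without Control replicate 1 (0.0829), MUS replicate 1 (0.1897) or MUS replicate 2 (0.0860). Bcl2a1b had a log2 fold change of 1.07 and did not pass (limma adjusted p = 0.128).

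On the other side, Bcl2l1 was at -0.96 on the log2 scale in MUS vs. Control (standard error 0.29, limma adjusted p = 0.0514). This was just over the adjusted threshold and also short of a change of 1. Bax was at -0.90 (limma adjusted p = 0.0701) and Bak1 at -0.88 (limma adjusted p = 0.131), both also short of a change of 1. On the deposited scale the library ranges of each of the 10 members were apart in this comparison. Of these, 5 were higher (Mcl1, Bid and the A1 copies) and 5 lower (Bcl2, Bcl2l1, Bcl2l11, Bax and Bak1). On that scale 73.3% of all genes did not overlap (39.6% higher and 33.8% lower). With FPKM rescaled to fragment totals, Bid overlapped (11.98 and 12.6 in MUS, 9.68 and 15.5 in Control). Mcl1 had a log2 fold change of 0.82 (limma adjusted p = 0.112), Bid of 0.49 (limma adjusted p = 0.261) and Bcl2l11 of -0.49 (limma adjusted p = 0.158).

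How many members passed in MUS vs. Control depended on the scale of the Control libraries. With FPKM rescaled to fragment totals, 5 members were called: Bcl2a1a and Bcl2a1d as higher, and Bcl2l1 (-1.44), Bax (-1.41) and Bak1 (-1.36) as lower, with limma adjusted p of 0.0163, 0.0113 and 0.0379 for these lower genes. With scaling without mitochondrial and highest genes 5 were also called, but with Bcl2l11 (-1.01, limma adjusted p = 0.0210) in place of Bcl2a1a. With quantile normalization 2 were called, Bcl2a1d and, as lower, Bax (-1.22, limma adjusted p = 0.0210). Over all genes, 27.5%, 28.4% and 20.3% were called under these scalings in turn, against 20.2% on the deposited scale. With fragment totals the log2 fold change of Bid was -0.000423 in place of 0.49. With the deposited scale 1107 genes were called higher and 873 lower in MUS vs. Control, against 738 and 1953 with fragment totals. In Model vs. Control these counts were 930 and 545, against 646 and 1554. The comparison of MUS with Model was hardly affected, as the median log2 fold change of all genes moved by less than 0.1 in each scaling.

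**Figure D4:**
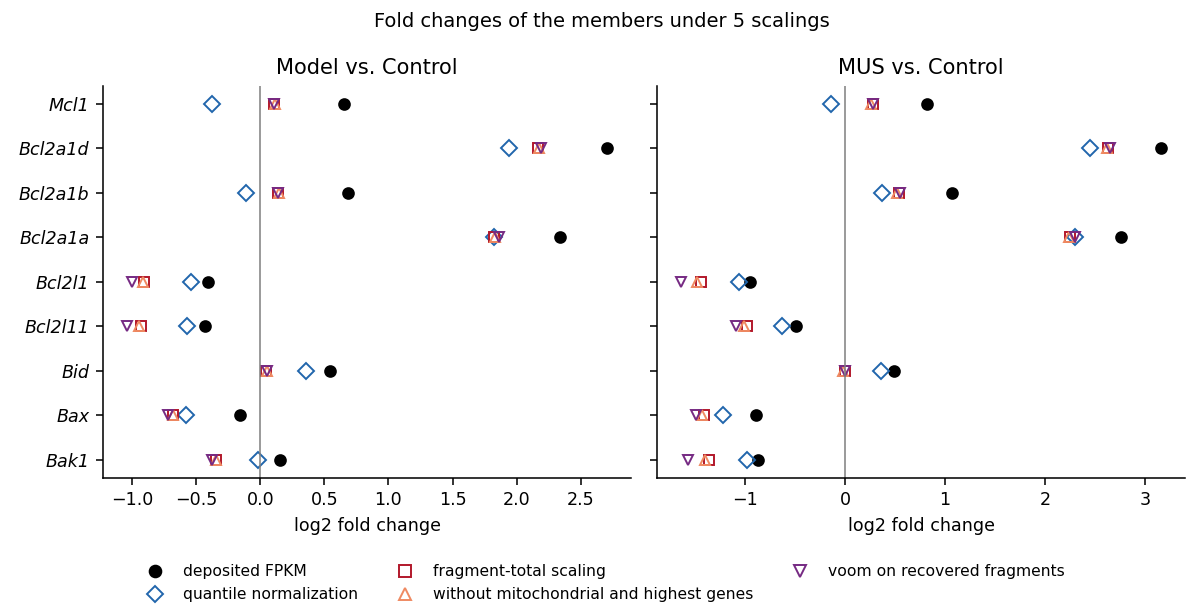
Log2 fold changes of the 9 members tested in Model vs. Control and MUS vs. Control, with 1 symbol for each of 5 scalings (filled circles for the deposited FPKM). The other scalings lie to the left of the deposited values, and Bcl2a1d and Bcl2a1a stay above 0. In Model vs. Control, Mcl1, Bcl2a1b and Bak1 fall on both sides of 0.

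Ratios of genes within a library are free of that scale. They are not free of the differences by gene length described above, as the A1 copies have 817 to 863 bases and Mcl1 3418. How often the ratios of other gene pairs set these groups apart was not computed. The A1 sum was 0.434 and 0.988 times the Mcl1 level in Control, 1.93 and 1.23 times in Model, then 2.13 and 1.64 times in MUS. All 4 stimulated libraries thus lay above both Control libraries, and Model and MUS overlapped. Mcl1 was 18.1 and 33.4 times the Bcl2l1 level in Control, 58.2 and 48.4 times in Model, then 114 and 76.6 times in MUS, so the groups were ordered without overlap. Relative to Bcl2l11, Mcl1 was at 20.8 and 28.5 in Control, 56.7 and 51.2 in Model, then 62.3 and 63.5 in MUS. Summed over the members, the survival transcripts stood at 7.19 and 9.12 times the death transcripts (Bcl2l11, Bid, Bax and Bak1) in Control, 20.9 and 16.6 times in Model, then 42.0 and 25.8 times in MUS. The survival sum was 330 and 467 FPKM in Control, 1147 and 735 in Model, then 1349 and 980 in MUS. The death sum was 45.9 and 51.2 FPKM in Control, 55.0 and 44.4 in Model, then 32.1 and 37.9 in MUS. The survival sum is dominated by Mcl1 and the A1 copies. Mcl1 alone made up 67.0% and 49.4% of the survival FPKM in Control and 31.9% to 44.4% in the stimulated libraries. A ratio shows that its genes differed unequally, not which of them changed, and transcript ratios are not protein ratios.

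Of 14 other BCL2 family genes, 6 reached a mean of 1 FPKM. In Model vs. Control 0 of these 6 rose and 1 fell (9.5% and 5.56% of all genes), Bnip3l, a mitophagy receptor related to the BH3-only proteins (log2 fold change -1.70, limma adjusted p = 0.0174). Bnip3l had 73.6 and 41.7 FPKM in Control and 18.6 and 14.4 FPKM in Model. In MUS vs. Model 0 of 6 were called. In MUS vs. Control 0 rose and 3 fell (11.3% and 8.91% of all genes), namely Bnip3l (log2 fold change -1.49, limma adjusted p = 0.0208), its relative Bnip3 (-1.05, limma adjusted p = 0.0189) and Bad (-1.07, limma adjusted p = 0.0305), a BH3-only gene whose product is held back by growth factor signalling. Bad had 4.34 and 3.90 FPKM in Control, 5.65 and 3.51 in Model, then 1.09 and 1.84 in MUS, with both MUS libraries the lowest. In MUS vs. Model its log2 fold change was -1.17, with a limma p of 0.00343 before and 0.361 after adjustment. Pmaip1, the gene of the BH3-only protein NOXA, had 4.26 and 6.90 FPKM in Control, 7.90 and 6.68 in Model, then 7.08 and 6.03 in MUS, and did not pass in Model vs. Control (0.36, limma adjusted p = 0.370). The median of the 6 genes was -0.10 in Model vs. Control, -0.17 in MUS vs. Model and -0.60 in MUS vs. Control, where the median of all genes was 0.04, 0.01 and 0.04.

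Of 8 genes of the apoptosome and of mitochondrial release, 7 were tested. In Model vs. Control 1 of the 7 rose, the cytochrome c gene Cycs (log2 fold change 1.07, limma adjusted p = 0.0324), and 1 fell, Casp9, the initiator caspase of the apoptosome (-1.06, limma adjusted p = 0.0341), where 15.1% of all genes were called. Cycs had 4.64 and 3.79 FPKM in Control, 12.2 and 8.02 in Model, then 14.6 and 14.3 in MUS, so all stimulated libraries stood above Control and both MUS libraries above both Model libraries. Casp9 had 6.71 and 6.01 FPKM in Control, 2.09 and 3.02 in Model, then 1.16 and 2.13 in MUS, and Model and MUS overlapped. Both calls in Model vs. Control were lost on leaving out any single library except Model replicate 2. In MUS vs. Model 0 of 7 were called, and Cycs had a log2 fold change of 0.50 (limma adjusted p = 0.676). In MUS vs. Control 1 rose (Cycs by 1.57) and 2 fell (Casp9 at -1.4995 and the mitochondrial protease gene Htra2 at -1.01), with limma adjusted p between 0.00772 and 0.0183, and 0 were called without MUS replicate 1 and 1 without MUS replicate 2. Of all genes 20.2% were called in that comparison. Apaf1, whose protein is the scaffold of the apoptosome, had 8.40 and 9.09 FPKM in Control, 10.2 and 12.99 in Model, then 13.7 and 11.9 in MUS, and did not pass in Model vs. Control (0.36, limma adjusted p = 0.310). The medians of the list were -0.31, 0.09 and -0.48 in the 3 comparisons, against 0.04, 0.01 and 0.04 for all genes.

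Among 9 regulators of BH3-only genes and of MCL1, all were tested. In Model vs. Control 1 rose, Mdm2, which encodes the ubiquitin ligase of p53 (log2 fold change 1.48, limma adjusted p = 0.0187). It had 34.3 and 42.4 FPKM in Control and 105 and 112 FPKM in Model. The same comparison had 2 genes that fell, Foxo3, a transcription factor gene upstream of Bcl2l11 (-1.96, limma adjusted p = 0.00608), and Ddit3, the gene of the stress factor CHOP (-1.46, limma adjusted p = 0.0163). Foxo3 had 10.2 and 6.08 FPKM in Control and 1.24 and 1.36 FPKM in Model. In MUS vs. Model 0 of 9 were called. In MUS vs. Control 1 rose (Mdm2 by 1.83, limma adjusted p = 0.00754) and 1 fell (Foxo3 at -1.91, limma adjusted p = 0.00515). These counts of 3 and 2 called of 9 stand beside 15.1% and 20.2% of all genes. Atf4, a stress-response transcription factor gene, had 89.8 and 54.4 FPKM in Control, 57.5 and 41.6 in Model, then 30.9 and 39.97 in MUS, and did not pass in MUS vs. Control (-0.97, limma adjusted p = 0.0879). The medians were -0.56, 0.19 and -0.76, against the same medians of all genes. Huwe1 and Usp9x, a ubiquitin ligase and a deubiquitinase of MCL-1, were lowest in Model replicate 1, at 1.80 and 4.59 FPKM. They had 8.09 and 20.04 FPKM in Model replicate 2, and Huwe1 was named after its values were seen. Model replicate 1 was also the library with fragments on the most genes, and the part of this in these values was not tested.

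**Figure D5:**
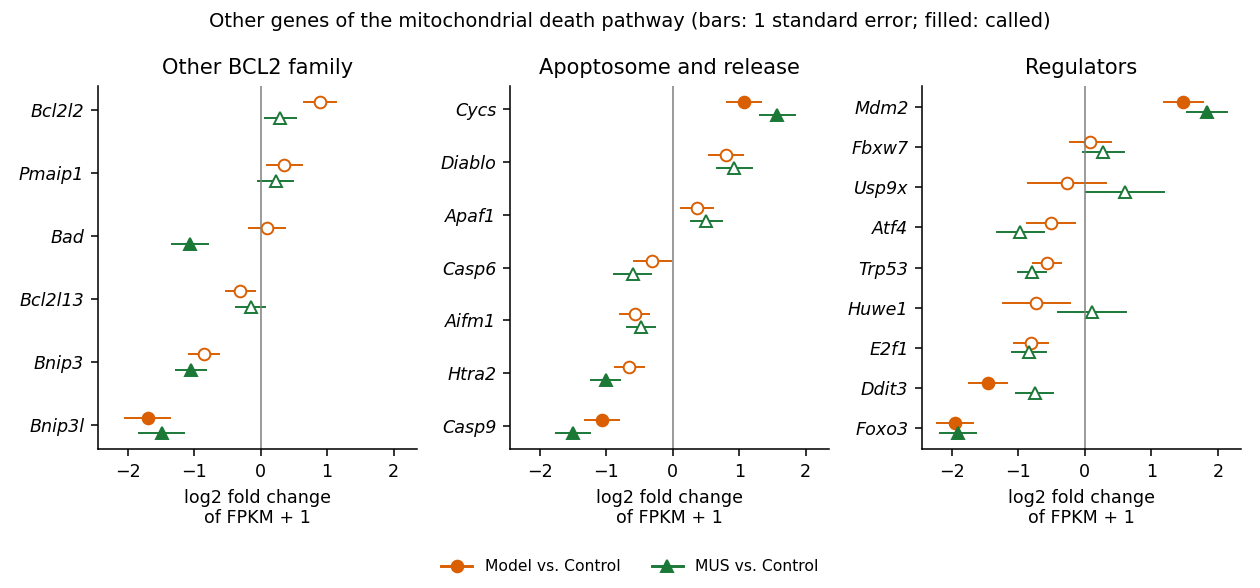
Log2 fold changes of FPKM + 1 for the tested genes of the 3 other lists, in Model vs. Control (circles) and MUS vs. Control (triangles), with bars of 1 standard error and filled symbols for called genes. Mdm2 lies farthest to the right and Foxo3 farthest to the left in both comparisons, and the comparisons share the Control libraries.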

How the data were processed

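RNA-seq of mouse peritoneal macrophages was analysed in 3 groups of 2 libraries. The authors deposited 1 table of FPKM with a column per library. The methods name RSEM for quantification, the submitters' processing notes list HISAT2 (version not given in the sources used here), featureCounts 1.5.0-p3 and build GRCm39, and the positions are those of GRCm38, as 98.3% of 54409 identifiers had the same start and end in GENCODE M21. How fragments matching several A1 copies were counted is not given in the sources used here. Each of the 6 columns belongs to a sample, which leaves 0 columns without one.

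FPKM times gene length was a whole multiple of 1 step per library, within 0.1 of that step, for at least 99.99% of values, so fragments per gene were recovered. They cover counting error only, and the limit that no count allows (3 fragments) equals 0.131 to 0.213 FPKM at a length of 1 kb.

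limma 3.58.1 (R 4.3.3) was fitted with a trend to log2(FPKM + 1) of 9794 genes, those that averaged 1 FPKM or more, in 1 model of 6 libraries (3 residual and 4.04 prior degrees of freedom), two-sided, with Benjamini-Hochberg adjustment over all genes tested. Genes were called at an adjusted p up to 0.05 if the log2 fold change was beyond 1 in size. DESeq2, which the authors ran, was not run here. voom on recovered fragments, scalings, filters and left-out libraries were alternatives. In simulated Model vs. Control data of 9794 genes with 200 changed, 53, 126 and 171 were called at log2 changes of 1.5, 2 and 3, with 3, 7 and 14 false calls. The real comparison called 1475 genes, more than were changed in the simulation. The simulated counts therefore do not give the power of the real test.

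The labels give the replicate number as batch, which pairs the libraries. The differences between replicates correlated across genes at 0.119 (Control and Model), 0.136 (Model and MUS) and -0.0928 (Control and MUS), and the number served as a block in an alternative.

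Some genes were left out of the apoptosome list and are not reported here, and other tested genes of the lists are counted without being described. Members, lists and tests were chosen with earlier results of these data known. All members are named, genes of other lists where called or among the 3 highest of a list, and any other gene is marked as chosen with its values in view. Python 3.11.15, pandas 2.3.3 and Matplotlib 3.10.9 prepared values and figures. Sequences are from RefSeq (GRCm38.p6) and GENCODE M21.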

Additional observations from a re-analysis of the deposited data

How the results depend on the processing

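Within MUS vs. Model, 0 members and 0 genes of the other lists were called under every alternative run, while over all genes the alternatives gave between 0 and 31 calls. With the replicate block, 1 member was called in Model vs. Control, 0 in MUS vs. Model and 2 in MUS vs. Control, the same genes as without it, and the block changed no other call of a member or list except that, together with a gene-length correction, 0 members were called in Model vs. Control. Where a value changed, the cause was not tested unless fewer samples or more genes tested show it. Members called in Model vs. Control (1) became 0 with all genes tested, with quantile normalization, with 2 groups fitted alone and with the A1 copies summed, and 2 with voom (Bcl2a1d and Bcl2l11). Leaving out single libraries gave 0 to 2, with 2 without Control replicate 2 and 0 without each of the others. In MUS vs. Control (2) the count was 0 with all genes tested, 5 with fragment-total scaling and with scaling without mitochondrial and highest genes, 6 with voom, 2 (Bcl2a1d and Bax) with quantile normalization, 1 with 2 groups alone and 1 with the copies summed, and leaving out libraries gave 0 to 3. Over all genes, 20.2% were called in MUS vs. Control in the main fit. This share was 1.51% with all genes tested, 25.6% among genes of at least 5 FPKM and 20.7% with 2 groups alone. It was 20.3% with quantile normalization, 27.5% and 28.4% with the 2 scalings above and 32.1% with voom. In Model vs. Control the shares were 15.1%, then 0.861%, 20.6%, 8.14%, 14.5%, 22.5%, 22.9% and 27.9% in the same order. The A1 sum in MUS vs. Control (2.32) was no longer called with all genes tested (2.32, limma adjusted p = 0.143) or quantile normalization (1.48, limma adjusted p = 0.0573). In Model vs. Control (1.89) it was called among genes of at least 5 FPKM (1.89, limma adjusted p = 0.0411), with voom (1.37, limma adjusted p = 0.0472) and without a trend (1.89, limma adjusted p = 0.0433). Leaving out libraries gave 1.27 to 2.50 in Model vs. Control, -0.0143 (without Model replicate 2) to 0.89 in MUS vs. Model and 1.70 to 2.94 in MUS vs. Control. Directions turned for Bak1 in Model vs. Control (-0.35 with both fragment-total scaling and scaling without mitochondrial and highest genes, -0.0165 with quantile normalization, -0.38 with voom), Bid in MUS vs. Control (-0.000423 and -0.0175 under the same 2 scalings), Mcl1 (-0.38 in Model vs. Control and -0.14 in MUS vs. Control) and Bcl2a1b (-0.11 in Model vs. Control) with quantile normalization, and, on leaving out a library, for Bid (-0.19 to 0.0843, above 0 without Model replicate 1), Bcl2a1b (-0.19 to 0.98, below 0 without Model replicate 2) and Bcl2l11 (-0.16 to 0.0539, above 0 without MUS replicate 2) in MUS vs. Model and Bax (-0.51 to 0.19, above 0 without Model replicate 2) in Model vs. Control. Other BCL2 family genes called in Model vs. Control (1) became 0 with all genes tested and with 2 groups alone and 2 with fragment-total scaling, scaling without mitochondrial and highest genes and voom (0 to 3 with libraries left out), and in MUS vs. Control (3) 0 with all genes tested and 1 at 5 FPKM (0 to 3). Apoptosome genes in Model vs. Control (2) became 0 with all genes tested and with 2 groups alone and 1 at 5 FPKM and with a pseudocount of 0.1 (0 to 2), and in MUS vs. Control (3) 0 with all genes tested, 1 at 5 FPKM and 6 with voom (0 to 3). Regulators in Model vs. Control (3) became 0 with all genes tested and 5 with voom (1 to 3), and in MUS vs. Control (2) 1 with all genes tested and at 5 FPKM and 6 with fragment-total scaling, scaling without mitochondrial and highest genes and voom (0 to 3).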

Other observations

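Several BH3-only and effector genes fell short of the limit for testing and are given as FPKM. They were named after their values were seen, and other listed genes below the limit did not all go the same way. The family gene Bok had 0.380 and 0.285 FPKM in Control and 0.385 and 0.210 in Model, and Bik and Hrk were at 0 in both Control libraries. Of all genes tested, 28.5% were lower without overlap in Model vs. Control and 33.8% in MUS vs. Control. Bbc3, the gene of the BH3-only protein PUMA, had 3.07 and 1.77 FPKM in Control, 0.234 and 0.608 in Model, then 0.0623 and 0.203 in MUS, so that all stimulated libraries lay below both Control libraries. Its mean of 0.991 FPKM was just under 1. Bmf, another BH3-only gene, had 1.10 and 0.291 FPKM in Control and at most 0.0809 FPKM in the other libraries. Endog, which encodes a nuclease released from mitochondria, had 2.02 and 1.77 FPKM in Control, 0.0667 and 0.121 in Model, then 0 and 0.521 in MUS, where replicate 1 was listed at 0. Bcl2l2, the gene of the survival protein BCL-W, had 2.21 and 3.30 FPKM in Control, 5.64 and 6.19 in Model, then 3.05 and 4.14 in MUS. It was among the tested genes, and its log2 fold change of 0.90 in Model vs. Control had a limma adjusted p of 0.0450 without reaching a change of 1.

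The genes most like each member in their pattern over the 6 libraries, by Pearson's r on log2(FPKM + 1), were Katna1 for Mcl1 (r = 0.999), Bzw1 for Bcl2a1d (0.998), Xrcc4 for Bcl2a1b (0.998), Psmd10 for Bcl2a1a (0.995), Gpr137 for Bcl2l1 (0.994), Pccb for Bcl2l11 (0.992), Slc30a6 for Bid (0.996), Fam110a for Bax (0.990) and Smarcb1 for Bak1 (0.997). With 6 libraries such values are common, as between 99 and 1240 genes had an r over 0.9 with a member. Among the members, Bcl2a1d had an r over 0.9 with Mcl1, Bcl2a1a and Bid, and Bcl2a1a also had one with Bid. All points share library and scale.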
